A study of Neotoma lepida with 16 samples.

Results

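The livers of desert woodrats (Neotoma lepida) from the Great Basin were compared between animals fed creosote bush and animals fed juniper. Of 16 animals in the series, 8 were Great Basin animals, 4 on each diet, and they were chosen by the population and diet in their titles. All 16 were wild caught, spent 3 months in captivity on rabbit chow, and over the following 5 days ate chow to which plant material was added in growing amounts. In Great Basin creosote, animals 1 and 2 were male and animals 3 and 4 female. In Great Basin juniper, animals 1 and 2 were female and animals 3 and 4 male. The other 8 animals came from the Mojave desert, with 4 males on creosote and 2 males and 2 females on juniper, and serve here only as a comparison. No ages were given, and no animals stayed on plain chow, so "higher on creosote" can equally be read as "lower on juniper".

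Creosote bush carries a phenolic resin and juniper carries terpenes, and a herbivore's liver must detoxify either before the compounds can be excreted. In Great Basin woodrats juniper is a native food, whereas creosote bush belongs to the Mojave desert. The first step of detoxification falls largely to cytochromes P450, haem enzymes of the endoplasmic reticulum that receive electrons from the reductase Por and from cytochrome b5. Conjugating enzymes then attach glucuronic acid, glutathione or sulfate. The same hepatocytes also make most plasma proteins, store and release glucose, make and burn fatty acids, and break down amino acids into urea, and the proteasome degrades their ubiquitin-tagged proteins.

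Each animal's liver RNA, labelled red, was hybridised to a rat array beside a green-labelled pool of the RNA of all 16 animals. A gene's value is therefore log2 of animal over pool, where 0 is a signal equal to the pool's and 1 unit is a factor of 2. For a single gene 0 need not be the average animal. The Pfn2 means, for example, were -1.61 and -0.32 in Great Basin creosote and juniper and -1.66 and 0.06 in Mojave creosote and juniper. Above or below the pool therefore does not mean above or below the average animal. A difference is creosote minus juniper on that scale from a model with a sex term, given with its standard error (SE, 4 animals per diet), and a gene was called when limma's adjusted p, corrected over 26423 genes, was under 0.05. Where a call is said to be lost without certain animals, each was left out alone. The share of probes well above background was between 46.4% and 69.4% on the creosote arrays and between 49.6% and 76.2% on the juniper arrays. Slide 1, which held 1 array of each group, was the dimmest (49.2% on average, against 66.0% to 71.7% on the other slides). On every slide the Great Basin creosote array lay at the first position and the Great Basin juniper array at the last, so diet and array position cannot be told apart. Of 14 hepatocyte marker genes measured, 13 were well above background on all 8 Great Basin arrays, for a tissue labelled liver. In bulk liver, fewer cells of a type and less RNA per cell cannot be told apart. The probes are rat sequences, so the level of one gene was never set against that of another.

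The diets separated the Great Basin livers along the first principal component of their profiles, which carried 32.8% of the variance. It placed the creosote animals between 12.5 and 22.8 and the juniper animals between -20.8 and -15.2. Of the 26423 genes, 1047 (3.96%) were called, 546 (2.07%) higher and 501 (1.9%) lower on creosote, and 121 (0.458%) differed at least 2-fold. Among the 9679 genes with a symbol 523 (5.4%) were called. The animals of the diets did not overlap in 989 (94.5%) of the called genes, against 2751 (10.4%) of all genes, 1333 (5.04%) with creosote above and 1418 (5.37%) with creosote below. The difference had the same sign on all 4 slides for 998 (95.3%) of the called genes. Leaving out juniper 1 lowered the number to 625, leaving out juniper 4 to 657, leaving out creosote 1 to 661, and leaving out the 4 arrays of slide 1 to 398. The share of calls that were higher was 52.1%, but 63.6% with median centring and 40.4% from the red channel alone, so the balance of higher to lower calls rests on the scaling.

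Values varied more among the creosote arrays than among the juniper arrays. The median SD over 4 animals was 0.128 on creosote and 0.106 on juniper over all genes, and the creosote SD was the larger for 16403 genes (62.1%). Among the 73 genes called at least 2-fold higher, the creosote SD was the larger for 53 (72.6%), with medians of 0.376 and 0.236. Among the 48 called at least 2-fold lower it was the larger for 38 (79.2%), with medians of 0.395 and 0.189. These shares are descriptions, since the calls rest on the same values and genes vary together across 4 animals. The second principal component (18.4% of the variance) was positive for slides 1 and 2 and negative for slides 3 and 4 on both diets. It ran from -22.5 to 16.3 on creosote and from -8.18 to 13.3 on juniper. Probes well above background averaged 60.6% on creosote and 65.2% on juniper. The parts of slide and brightness in the wider spread were not tested.

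The largest difference was that of Il1r2, a decoy receptor that binds interleukin-1 without signalling. Its values were 1.29, 1.12, 0.42 and 2.24 in creosote animals 1 to 4, and -1.98, -1.74, -2.45 and -2.24 in juniper animals 1 to 4. Every creosote animal stood above the pool and every juniper animal below it, with a gap of 2.16 between the groups. The difference was 3.37 ± 0.33 (10.3-fold, limma adjusted p = 7.15e-05), at 3.55 in males and 3.18 in females. Elovl6, which elongates palmitate, read 1.99, 1.34, 0.61 and 1.24 on creosote and -1.24, -1.63, -1.27 and -1.37 on juniper, again without overlap. Its difference was 2.67 ± 0.27 (limma adjusted p = 7.15e-05), but a second Elovl6 probe read -0.07. Among the 19 measured genes of the interleukin-1 system Il1r2 was the only one called (5.26%, against 3.96% of all genes). The median difference of that list was 0.03.

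Follistatin (Fst), a secreted antagonist of activin, was high in 3 of the 4 creosote animals. The creosote values were 0.93, -0.64, 2.02 and 1.10, and the juniper values lay closely together at -1.47, -1.33, -1.43 and -1.18. Creosote 2 was the low one, yet still above every juniper animal. The difference of 2.21 ± 0.48 (limma adjusted p = 0.0161) lost its call without creosote 1 or 3, and likewise without juniper 1 or 2 (adjusted p from 0.0516 to 0.0614), while a second probe read 1.45. The plasma-membrane calcium pump Atp2b2 was 2.01 ± 0.28 higher on its main probe and 1.91 on the other. The chemokine Cxcl12 was 1.55 ± 0.29 higher, and its second probe read 0.85. Cyp26a1, which degrades retinoic acid, ran from 0.25 to 1.14 on creosote and from -1.23 to -0.83 on juniper (1.66 ± 0.17). Rdh5, a retinol dehydrogenase, was 1.16 ± 0.17 higher, with a second probe at 0.90. Of 18 retinoid-handling genes these were the 2 called higher, and 16.7% were called in either direction, against 3.96% of all genes. Rbp2, the intestinal retinol-binding protein, was called lower, but it was not well above background on the creosote arrays and its adjusted p passed 0.05 without creosote 2 or 3 or juniper 1 or 4 (0.0707 to 0.111).

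**Figure D1:**
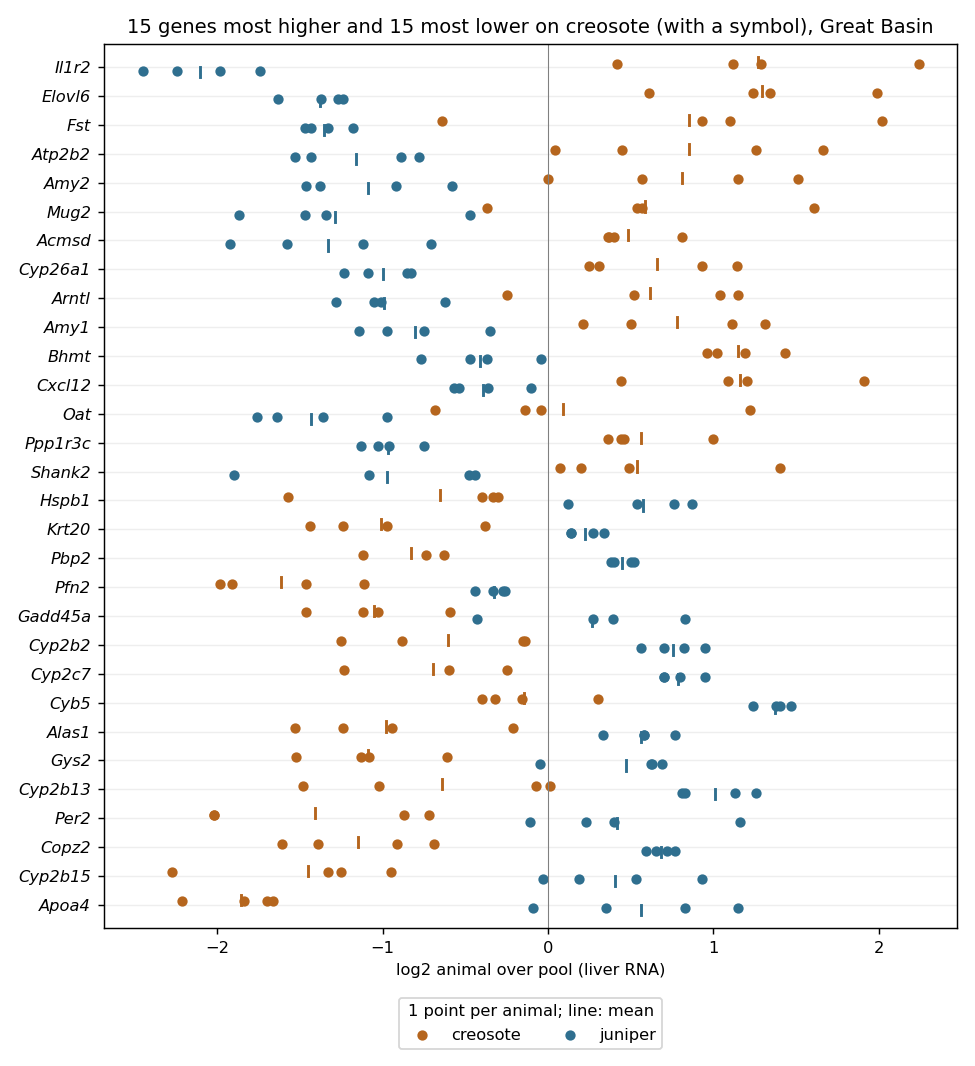
Level of the 15 genes with the largest positive and the 15 with the largest negative called difference among genes with a symbol, as log2 animal over pool on the x axis, in each Great Basin animal. Points are animals and short lines group means. In each of the 30 genes the creosote and juniper animals do not overlap, and Il1r2 has the widest gap, 2.16.

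The amylase genes Amy1 and Amy2, which encode starch-digesting enzymes, were both higher on creosote. Amy1 read 1.11, 1.31, 0.21 and 0.50 on creosote and -0.97, -0.35, -0.75 and -1.14 on juniper, and Amy2 read 1.15, 1.51, 0.00 and 0.57 against -1.46, -0.58, -0.92 and -1.38. The animals kept the same order in both genes on creosote, with animal 3 lowest and animal 2 highest. The differences were 1.59 ± 0.22 for Amy1 and 1.89 ± 0.25 for Amy2, but a second Amy2 probe read 0.09, and the mean over both gave no call (0.99, adjusted p = 0.0702). Whether the rat probes measure separate woodrat transcripts is not known. These were the 2 called members (7.41%, against 3.96% of all genes) of 27 measured markers of pancreas and intestine. The median difference of the 27 was -0.02. The list's median level ranged from -0.08 to 0.04 on creosote and from -0.03 to 0.02 on juniper. The other exocrine markers Prss1 (-0.02), Cpa1 (-0.05), Cel (-0.19) and Pnlip (-0.03) had no call.

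On the lower side stood Apoa4, an apolipoprotein of triglyceride-rich particles. The creosote animals read -2.21, -1.70, -1.66 and -1.84 and the juniper animals 0.35, -0.09, 1.15 and 0.83, so that creosote animals were tightly grouped and juniper animals spread out. The difference was -2.42 ± 0.22 (5.34-fold, limma adjusted p = 4.49e-05), at -2.95 in males and -1.89 in females. Mttp, which loads lipid onto apolipoprotein B, was also lower (-0.58 ± 0.12), and the high-density lipoprotein gene Apoa2 was higher by 0.33 ± 0.08. The Apoa2 call was lost without creosote 1 or 3, and likewise without juniper 1, 3 or 4 (adjusted p from 0.0671 to 0.0855), and the gene was well above background on 3 of 4 juniper arrays. Apob itself, at 0.22, had no call. Of 23 measured genes of lipoprotein handling Apoa4, Mttp and Apoa2 were the 3 called (13%, against 3.96% of all genes).

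P450s of the Cyp2b subfamily, some members of which are induced by phenobarbital, were lower on creosote, and how much lower depended on the animal. Cyp2b15 read -1.33, -0.95, -1.25 and -2.27 on creosote and 0.19, 0.93, -0.03 and 0.53 on juniper. Cyp2b13 read -1.02, -0.07, 0.01 and -1.48 against 1.26, 0.83, 1.13 and 0.81, and Cyp2b2 read -0.88, -0.14, -0.15 and -1.25 against 0.95, 0.82, 0.70 and 0.56. For Cyp2b13 and Cyp2b2, creosote animals 1 and 4 were far below the pool while animals 2 and 3 lay near it, 1 male and 1 female in each case, and no creosote animal reached the juniper range. The differences were -1.86 ± 0.28 (limma adjusted p = 0.00132), -1.65 ± 0.27 (adjusted p = 0.00273) and -1.36 ± 0.21 (adjusted p = 0.00173). Further probes read 0.15 for Cyp2b15, -0.44 for Cyp2b13 and -0.23, -0.96 and -2.17 for Cyp2b2, so that the Cyp2b15 difference rests on 1 of 2 probes. Without slide 1, Cyp2b13 (adjusted p = 0.077) and Cyp2b2 (adjusted p = 0.0553) lost their calls.

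Members of the Cyp2c and Cyp3a subfamilies were lower too. Cyp2c7 was -0.60, -0.25 and -1.23 in creosote animals 1, 3 and 4 (animal 2 gave no value) and between 0.70 and 0.95 on juniper, a difference of -1.48 ± 0.20. Of 2 further Cyp2c7 probes, 1 read -0.11 and the other -1.90. Cyp3a3, of the subfamily with the widest range of drug substrates, lay between -1.73 and -0.87 on creosote and between -0.25 and 0.17 on juniper (-1.18 ± 0.17, limma adjusted p = 0.00108). Cyp3a11 was lower by a smaller amount (-0.54 ± 0.08), and from the red channel alone it read -0.23 without a call (limma adjusted p = 0.341). Of 32 measured P450s of families 1 to 3, 11 were called lower and 1 higher (37.5%, against 3.96% of all genes). The list's median difference was -0.10 against -0.01 over all genes. The exception was Cyp2e1, singled out after its values were seen, which oxidises ethanol and acetone and was higher by 0.51 ± 0.11. The dioxin-inducible Cyp1a2 (0.25) and Cyp1b1 (-0.01) had no call. Without slide 1, 6 were called lower and none higher. P450s share sequence within a subfamily, and whether related woodrat transcripts bound to the same rat probe was not examined.

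Of 18 measured genes that supply P450s with haem or electrons, 6 (33.3%) were called, all lower, against 1.9% of all genes called lower. Alas1, the rate-limiting enzyme of haem synthesis, read -1.24, -0.21, -0.94 and -1.53 on creosote and 0.58, 0.33, 0.77 and 0.58 on juniper. Creosote 2 stood closest to the juniper animals. The Alas1 difference of -1.55 ± 0.35 (limma adjusted p = 0.0206) lost the call without creosote 1 or 4, and likewise without juniper 1 or 3 (adjusted p from 0.0542 to 0.0759). Alas1 also had no call from the authors' processed ratios (adjusted p = 0.063) or from the red channel alone (adjusted p = 0.0631). Fech, the last enzyme of the pathway, was lower, at -0.46 ± 0.09. Fech had no call with median centring (limma adjusted p = 0.0823) or from the red channel alone (0.107). Cytochrome b5 (Cyb5) read -0.32, 0.30, -0.16 and -0.40 on creosote and 1.38, 1.47, 1.40 and 1.24 on juniper. Its spots were saturated on all 4 juniper arrays. By the red signal alone, 17.92 on creosote and 18.43 on juniper in log2, the transcript was at least 1.43-fold higher on juniper. The fitted difference in the ratio to the pool was -1.52 ± 0.14 (limma adjusted p = 4.49e-05). That p does not test the red bound, and saturated spots do not give the size of the difference. The reductase Por was -1.37, -0.73, -0.11 and -1.11 on creosote and -0.09, 0.46, 0.07 and 0.22 on juniper (-1.0 ± 0.22). It lost its call without creosote 1, and likewise without juniper 2 or 4 (adjusted p from 0.0597 to 0.0652). Por also had no call from the authors' processed ratios (adjusted p = 0.0553), with median centring (0.0592), from the 8 Great Basin arrays alone (0.0622) or without slide 1 (0.162). The median difference of the list was -0.36. The list's median lay between -0.26 and -0.17 in creosote animals and between 0.06 and 0.15 in juniper animals. With slide 1 left out, 3 genes of the list were called, all lower.

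Calls among conjugating enzymes, carriers and NRF2 targets ranged from none to 15.4% of a list, against 3.96% of all genes. None of 10 sulfotransferases and none of 7 carboxylesterases and epoxide hydrolases was called by limma, with 3 and 2 at an unadjusted p under 0.05. Of 41 ABC transporters 1 was called higher and 2 lower (7.32%), and of 28 organic ion and bile salt carriers 1 was called higher (3.57%). Of 19 glutathione S-transferases (10.5% called) Gsto1 was lower (-0.85 ± 0.15) and Gstm2 higher (1.30 ± 0.29), the latter without a call when creosote 1 or 3 or juniper 1, 2 or 4 was left out (adjusted p from 0.0501 to 0.0759). Ugdh, which makes the UDP-glucuronic acid used in glucuronidation, lay between -1.18 and -1.0 in 3 creosote animals (animal 2 gave no value) and between -0.14 and 0.14 on juniper (-1.11 ± 0.16, limma adjusted p = 0.00108). It was the only call (8.33%) among 12 measured genes of the glucuronosyltransferase list, which counts it beside the transferases. Of 26 targets of NRF2, the factor that answers electrophiles, 4 (15.4%) were called, all lower: Ugdh, the glutathione reductase Gsr (-0.78 ± 0.13), the peroxiredoxin Prdx1 (-0.73 ± 0.13) and the thioredoxin Txn1 (-0.82 ± 0.17). Txn1 lost its call without juniper 1 or 4 (adjusted p = 0.0654 and 0.0707). From the authors' processed ratios neither Prdx1 (limma adjusted p = 0.0735) nor Txn1 (0.0676) was called, and with median centring neither was called (0.0595 and 0.0929). Txn1 also had no call from the 8 Great Basin arrays alone (0.0784) or without slide 1 (0.135). The xenobiotic receptor Nr1i3, also called CAR, was higher by 0.67 ± 0.11, although a second probe read -0.01.

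Proteasome subunits were lower on creosote, with 13 (92.9%) of the 14 core subunits measured called lower. Of the 19 measured genes of the regulatory list, 14 (73.7%) were called lower. Of all genes 1.9% were called lower. Psma5, a ring subunit of the core, read -0.89, -0.57, -0.97 and -0.93 on creosote and -0.02, 0.17, 0.02 and 0.05 on juniper (-0.89 ± 0.09, limma adjusted p = 8.07e-05). Psmd2, a scaffold of the regulatory cap, read -0.82, -0.76, -0.87 and -1.07 against -0.20, -0.06, -0.10 and 0.04 (-0.80 ± 0.08, adjusted p = 7.15e-05). Unlike the P450s, the 4 creosote animals were close to each other in both. The median difference was -0.69 over the core and -0.77 over the regulatory list. The core median of an animal lay between -0.51 and -0.46 on creosote and between 0.10 and 0.29 on juniper. Taken over the differences of the single core subunits, the median was -0.63 to -0.70 within each of the 4 slides, -0.66 in males and -0.68 in females. The catalytic subunits Psmb5 (-0.67 ± 0.08) and Psmb6 (-0.92 ± 0.10) and the ATPases Psmc1 (-0.83 ± 0.09) and Psmc4 (-0.80 ± 0.10) were among those called lower. Psmc4 was lower also on its second probe (-0.89). The members without a call, named after their values were seen, were Psma2 (0.09) in the core and 5 genes of the regulatory list. These were Psmd5 (-0.38), Psmc6 (-0.35), Psmd6 (-0.19), Uchl5 (-0.12) and Psmd10 (0.25), not all of which are subunits of the finished cap. Without slide 1, 11 core and 9 regulatory subunits were called lower, and with median centring 9 and 9.

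**Figure D2:**
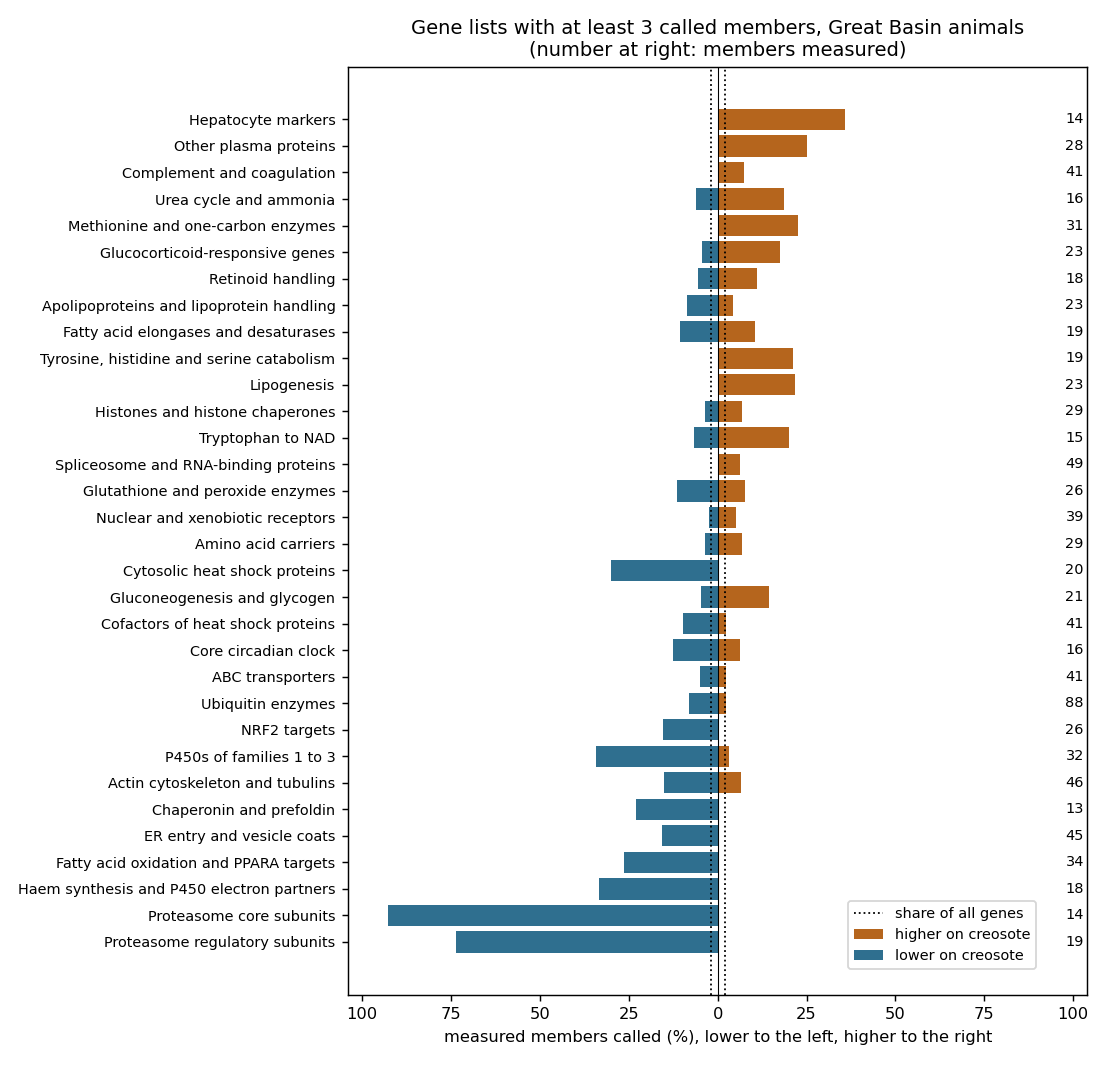
Share of the measured members of each gene list that was called higher (right) or lower (left) on creosote in Great Basin animals, for lists with at least 10 measured members and at least 3 calls, ordered by median difference. Dotted lines mark the share over all genes, 2.07% higher and 1.9% lower, and both proteasome lists reach furthest to the left.

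Genes that feed or assist the proteasome were called less broadly. Of 88 ubiquitin enzymes and ubiquitin-binding factors 7 were called lower and 2 higher (10.2%, against 3.96% of all genes). Ubqln1, which carries ubiquitinated proteins to the proteasome, was lower, at -0.83 ± 0.10 with a second probe at -0.64, and the segregase Vcp and its partner Faf1 were lower, at -0.66 ± 0.13 and -0.54 ± 0.11. A second Faf1 probe read -0.32, and the mean over both gave no call (adjusted p = 0.0505). The list's median was -0.05 and turned to 0.03 with median centring. Among 20 cytosolic heat shock proteins 6 (30%) were called, all lower, against 1.9% of all genes called lower. However, the list's median was -0.01 and 9 members had a difference above 0. Hspcb (Hsp90 beta) read -0.79, -0.67, -0.43 and -0.98 on creosote and 0.02, 0.03, 0.13 and 0.03 on juniper (-0.77 ± 0.10, limma adjusted p = 0.000487), while a second probe read -0.19. The small heat shock protein Hspb1 read -0.30, -0.40, -0.33 and -1.57 on creosote, with animal 4 far below the others, against 0.12 to 0.87 on juniper (-1.22 ± 0.24). Hspa8 (-0.73 ± 0.16) lost its call without creosote 1, and likewise without juniper 1 or 2 (adjusted p from 0.0567 to 0.068), and Hspca, Hsp90 alpha (-1.08 ± 0.24), without creosote 4 or juniper 2 or 4 (0.0543 to 0.0687). Further probes read -0.86 and -0.21 for Hspa8 and -1.17 and -0.32 for Hspca. None of 24 genes of folding and stress in the endoplasmic reticulum was called by limma, and 3 had an unadjusted p under 0.05. Of the 20, 2 were called lower without slide 1. The Hsp40 cochaperone Dnaja1 (-0.99 ± 0.18) and the chaperonin subunit Cct4 (-0.68 ± 0.11) were lower too.

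The secretory route and the cytoskeleton held further lower genes. Of 45 genes of protein entry into the endoplasmic reticulum and of vesicle coats, 7 (15.6%) were called, all lower. Of all genes 1.9% were called lower. The list's median was -0.15. Copz2, a subunit of the COPI coat, was between -1.61 and -0.69 on creosote and between 0.59 and 0.77 on juniper (-1.83 ± 0.21), but its second probe read -0.04. Sec23a, of the COPII coat that carries cargo out of the endoplasmic reticulum, was lower, at -0.77 ± 0.15 (second probe -0.49), and the retrieval receptor Kdelr3, at -0.36 ± 0.07. Of 46 actin and tubulin genes 7 were called lower and 3 higher (21.7%, against 3.96% of all genes). Profilin 2 (Pfn2), which binds actin monomers, read -1.11, -1.91, -1.98 and -1.46 on creosote and -0.27, -0.33, -0.44 and -0.26 on juniper (-1.29 ± 0.18). The beta tubulin Tubb2b was lower, at -0.99 ± 0.16, with -0.81 on a second probe. Without slide 1, 2 genes of the first list and 1 lower gene of the second were called.

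Of 23 lipogenic genes 5 (21.7%) were called, all higher on creosote, against 2.07% of all genes called higher. Srebf1, the transcription factor that drives lipogenesis, was 0.91, 0.27, 0.83 and 1.20 on creosote and -0.46, -0.44, -0.65 and -1.03 on juniper (1.45 ± 0.19, limma adjusted p = 0.000508). Of its 2 further probes 1 read 1.12 and the other -0.01. Acaca, which makes malonyl-CoA, was higher by 1.14 ± 0.18 on 1 probe and by 0.03 on another, and the stearoyl-CoA desaturase Scd2 by 1.10 ± 0.15. Further Scd2 probes read -0.27 and 0.46, and the mean over them gave no call (0.43, adjusted p = 0.314). Fasn, the fatty acid synthase, named after its values were seen, ran from 0.29 to 0.83 on creosote and from -1.15 to -0.70 on juniper (1.40 ± 0.26). Without slide 1 the count was again 5. The median of the list was 0.04. Elovl2 and Fads2, which act on polyunsaturated fatty acids, were lower, at -0.96 ± 0.15 (second probe -0.36) and -0.61 ± 0.15. Fads2 lost its call without any 1 of 6 animals, namely creosote 1, 2 or 4 or juniper 1, 2 or 4 (adjusted p from 0.0695 to 0.12). None of 25 genes of cholesterol synthesis and uptake was called by limma, and 1 had an unadjusted p under 0.05.

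Among 34 genes of fatty acid oxidation and targets of the receptor PPARA, 9 (26.5%) were called, all lower, and 27 had a difference below 0. Of all genes 1.9% were called lower. The hormone Fgf21, a PPARA target of the fasted liver, read -0.66, -0.24, -0.21 and -0.59 on creosote and 0.52, 0.21, 0.45 and 0.44 on juniper (-0.83 ± 0.13, limma adjusted p = 0.0019). The beta-oxidation isomerases Dci and Ech1 were lower, at -0.77 ± 0.12 and -0.81 ± 0.14, in each case with all creosote animals below all juniper animals. Crat, the carnitine acetyltransferase, was -0.28, -0.33, -0.38 and -1.08 on creosote and 0.32, -0.13, 0.34 and 0.38 on juniper (-0.75 ± 0.16), and lost its call without juniper 1 (adjusted p = 0.0586). The list's median difference was -0.23, and without slide 1 the median was -0.24 with 2 calls.

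Of 31 enzymes of methionine and one-carbon metabolism 7 (22.6%) were called, all higher, against 2.07% of all genes. Bhmt, which remethylates homocysteine with betaine, read 0.96, 1.02, 1.43 and 1.19 on creosote and -0.37, -0.04, -0.47 and -0.77 on juniper (1.57 ± 0.15, limma adjusted p = 7.9e-05), while a second Bhmt probe read 0.12. Gnmt, which consumes S-adenosylmethionine, was 1.14 to 1.56 on creosote and 0.16 to 0.27 in 3 juniper animals, juniper 2 giving no value (1.14 ± 0.11). Its spots were saturated on 3 of 4 creosote arrays, so the difference can be read only as a lower bound. Ahcy, which splits S-adenosylhomocysteine, was higher by 0.78 ± 0.11, the glycine cleavage protein Gcsh by 0.54 ± 0.09, and Cth, which makes cysteine, by 1.07 ± 0.19. A second Gcsh probe pointed the other way, at -0.17, and the mean over both gave no call (0.18, adjusted p = 0.497). The median of the list was 0.16, and 4 were called without slide 1.

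Enzymes of amino acid breakdown and nitrogen disposal held 7 genes called higher and 1 called lower, of 16 genes of the urea cycle and 19 of tyrosine, histidine and serine catabolism. Cps1, the entry enzyme of the urea cycle, read 0.64, 0.57, 0.69 and 0.34 on creosote and -0.64, -0.34, -0.42 and -0.46 on juniper (1.03 ± 0.12, limma adjusted p = 0.000201), and argininosuccinate synthase (Ass) was higher by 0.65 ± 0.09. Ornithine aminotransferase (Oat) read -0.68, -0.14, -0.04 and 1.22 on creosote and -0.97, -1.36, -1.64 and -1.76 on juniper. Creosote 4 alone was above the pool, although all creosote animals exceeded all juniper animals. The Oat difference of 1.53 ± 0.33 lost its call without juniper 4 (adjusted p = 0.0502). Odc1, which turns ornithine into polyamines, was lower, at -0.89 ± 0.19, with 0.04 on a second probe and no call without creosote 1, and likewise without juniper 3 or 4 (adjusted p from 0.0505 to 0.0544). Of the 16 urea cycle genes 3 were called higher and 1 lower (25%, against 3.96% of all genes). Of the 19 catabolic genes 4 (21.1%) were called, all higher, against 2.07% of all genes called higher. These were histidase (Hal, 1.23 ± 0.15), tyrosine aminotransferase (Tat, 1.41 ± 0.19), serine dehydratase (Sds, 1.03 ± 0.17) and Agxt of glyoxylate metabolism (0.54 ± 0.11, second probe 0.29).

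The route from tryptophan to NAD was called in both directions. Tdo2 and Kmo, early enzymes of the kynurenine pathway, were higher by 0.65 ± 0.13 and 0.66 ± 0.12. Acmsd, which diverts the pathway away from NAD, read 0.37, 0.40, 0.81 and 0.36 on creosote and -0.71, -1.58, -1.92 and -1.12 on juniper (1.82 ± 0.26, limma adjusted p = 0.00101). Nmnat1, which completes NAD in the nucleus, was lower, at -0.65 ± 0.11. Of the 15 measured genes of the list 26.7% were called, against 3.96% of all genes, and their median difference was 0.04.

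Glucose metabolism held strong single genes rather than a shift of the list. Ppp1r3c, which targets phosphatase to glycogen, read 0.44, 1.00, 0.36 and 0.46 on creosote and -0.96, -0.75, -1.13 and -1.03 on juniper (1.53 ± 0.20), and a second probe read 0.42. Glucose-6-phosphatase (G6pc), which releases free glucose, was 1.12, 0.08, 0.23 and 0.10 against -0.94, -0.80, -1.20 and -0.97 (1.36 ± 0.22), with 0.28 on a second probe. The liver glycogen synthase Gys2 was -1.13, -0.61, -1.08 and -1.52 against -0.05, 0.62, 0.63 and 0.69 (-1.56 ± 0.21), but a second probe pointed the other way, at 1.06, and the mean over both probes gave no call (adjusted p = 0.631). Of 21 genes of gluconeogenesis and glycogen, 3 were called higher and 1 lower (19%, against 3.96% of all genes), with a median of -0.01. Among 23 genes known to respond to glucocorticoids 4 were called higher and 1 lower (21.7%, against 3.96% of all genes). These were Tat, Klf15 (1.05 ± 0.16), G6pc and Tdo2 against Gadd45a (-1.32 ± 0.22).

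Clock genes differed in opposite directions. Arntl, also called Bmal1, the activator of the circadian clock, read 1.15, -0.25, 0.52 and 1.04 on creosote and -0.62, -1.28, -1.01 and -1.05 on juniper (1.61 ± 0.27, limma adjusted p = 0.00328). Per2, a repressor of the same loop, read -2.02, -0.72, -0.87 and -2.02 on creosote and -0.11, 1.16, 0.40 and 0.23 on juniper (-1.83 ± 0.36, adjusted p = 0.00902). Without slide 1 the Per2 call was lost (adjusted p = 0.0514). Creosote animals 1 and 4 were the furthest from the juniper animals in both genes, as they were for Cyp2b13 and Cyp2b2. Per3 was lower, at -0.68 ± 0.16, as was the output factor Hlf, at -0.82 ± 0.20. Per3 lost its call without creosote 1 or 4, and likewise without juniper 1 or 2 (adjusted p from 0.0656 to 0.0898), and Hlf without creosote 1 or 4 or juniper 1, 2 or 4 (0.0709 to 0.104). Of 16 core clock genes 18.8% were called, against 3.96% of all genes. The other 13 had no call, Clock at -0.06 and Nr1d1 at -0.02 among them. The times of day at which the livers were taken are not given in the labels.

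Several plasma proteins were higher on creosote. Fibronectin (Fn1) was 1.36, 1.06, 0.81 and 1.46 on creosote and 0.39, 0.47, -0.24 and -0.09 on juniper (1.04 ± 0.18), with a second probe at 0.81. The proteinase inhibitor Mug2 was higher by 1.87 ± 0.44 (second probe 0.34) and lost its call without creosote 1, and likewise without juniper 1, 3 or 4 (adjusted p from 0.0666 to 0.0894). Complement C5 was 0.69 to 0.87 on creosote and -0.30 to 0.12 on juniper (0.88 ± 0.13), and its further probes read 0.57 and 0.47. Of 28 plasma proteins outside the complement and coagulation cascades 7 (25%) were called, all higher, with a median of 0.38. Of 41 complement and coagulation genes 3 (7.32%) were called, all higher, with a median of 0.33. Of all genes 2.07% were called higher. Without slide 1 a single gene of each list was called, against 198 of all 26423 genes called higher, and the medians were 0.29 and 0.20.

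Of 14 hepatocyte markers 5 (35.7%) were called, all higher, against 2.07% of all genes called higher. The difference was above 0 in 13 of the 14, with a median of 0.64. The list's median was between 0.37 and 0.65 in creosote animals and between 0.02 and 0.09 in juniper animals. Cps1, Tat, Ahsg (0.86 ± 0.16, from 3 juniper animals, second probe 0.92), Ambp and Cyp2e1 were the called members, and Ambp was saturated on all 8 arrays, so no fold is given for it. Albumin (Alb, 1.00, adjusted p = 0.0661) and Hnf4a (0.00) had no call. Ambp and Ahsg are also plasma proteins, and Cps1 and Tat also amino acid enzymes. The markers and those groups were both higher on creosote, and the part of the marker shift in the group differences was not tested. Without slide 1 the median was 0.54 and 2 markers were called.

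**Figure D3:**
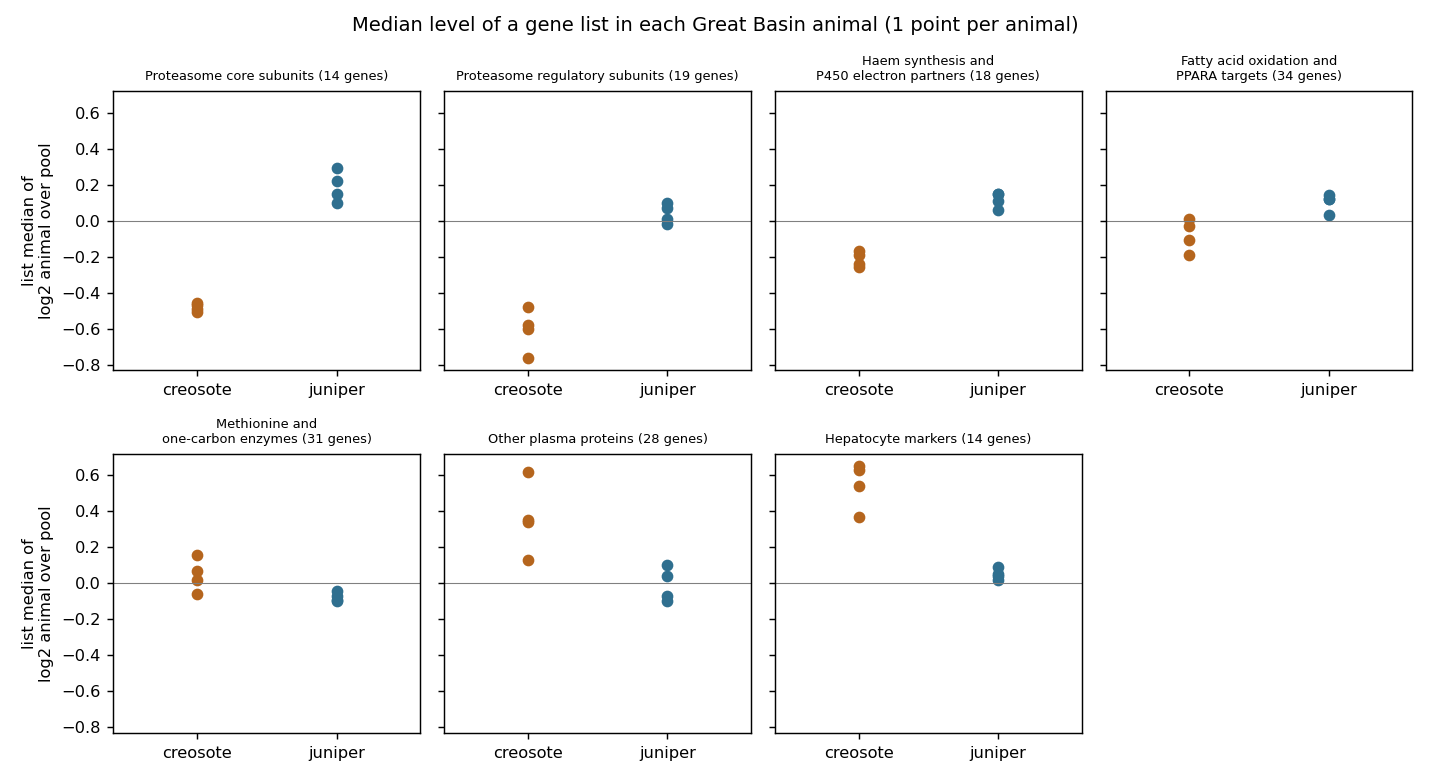
Median of 7 gene lists in each Great Basin animal, as log2 animal over pool on the y axis, with creosote and juniper animals side by side. Creosote animals lie below juniper animals in both proteasome lists, the haem list and the fatty acid oxidation list, and above them in the hepatocyte markers, where they span 0.37 to 0.65 against 0.02 to 0.09.

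Markers of other liver cells held between 0 and 2 calls a list. Kupffer cell markers had 1 call among 12 (8.33%, against 3.96% of all genes), the endotoxin coreceptor Cd14 (-0.54 ± 0.10, with -0.04 on a second probe), and the list's median level overlapped between the diets (-0.22 to 0.25 on creosote, -0.23 to 0.20 on juniper). Stellate cell and fibroblast markers had 2 among 15 (13.3%), Rgs5 (1.23 ± 0.20) and Timp1 (0.76 ± 0.13), with list medians of -0.08 to 0.37 on creosote and -0.25 to 0.15 on juniper. The endothelial list had 1 among 11 (9.09%), Xlkd1 (0.56 ± 0.11), and the neutrophil list 1 among 12 (8.33%), Csf3r (0.53 ± 0.09), which reads -0.18 from the red channel alone. None of 9 cholangiocyte, 12 lymphocyte and 8 erythroid markers was called by limma (1, 1 and 0 at an unadjusted p under 0.05). The ribosomal proteins, a large group that serves as a reference, had 1 call among 73 (1.37%) and a median of 0.00.

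Further called genes included some that separated the diets with little spread and others that varied more. Baz2a, a subunit of a nucleolar chromatin-remodelling complex, read 0.99, 0.86, 0.68 and 1.14 on creosote and -0.58, -0.68, -0.32 and -0.35 on juniper (1.40 ± 0.10, limma adjusted p = 8.5e-06). The histone chaperone Asf1a was -1.01, -0.87, -0.92 and -1.0 against 0.07, -0.13, 0.07 and -0.03 (-0.94 ± 0.08), and its second probe read -0.92. Krt20, an epithelial keratin, was lower, at -1.23 ± 0.16, with creosote animals from -1.44 to -0.38. Gadd45a, a stress-inducible regulator of growth arrest, was between -1.46 and -0.59 on creosote and between -0.43 and 0.83 on juniper. Of 21 interferon-response genes 2 (9.52%) were called, both higher: Irf7, a master regulator of the response (1.35 ± 0.29), and Usp18 (0.80 ± 0.20). A second Usp18 probe read 0.05, and the mean over both gave no call (adjusted p = 0.063). In Irf7 the male creosote animals were at 1.44 and 1.20 and the females at -0.26 and 0.37. Its call was lost without creosote 1 (adjusted p = 0.0593), and that of Usp18 without any animal other than creosote 1 (0.0512 to 0.125).

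The sexes showed the diet difference in the same direction in all 1047 called genes, against 60.2% of all genes, which is in part a consequence of calling on the mean of both. With 2 animals per sex and diet, the difference between males and females had a median SE of 0.178, and limma called 1 gene for it (0.00378%), against 1360 (5.15%) at an unadjusted p under 0.05. The count of called genes was 0 from the authors' processed ratios, from the red channel alone, with the slide as a block, and without slide 1. Amy1 and Amy2 were at 2.16 and 2.48 in males and 1.02 and 1.30 in females, with no call for the difference.

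The Mojave animals received the same diets and share no sample with the Great Basin groups. There 2531 genes (9.58%) were called, 1014 (3.84%) higher and 1517 (5.74%) lower, and 944 (90.2%) of the Great Basin calls had the same sign, against 58.8% of all genes. Called in both populations were 545 genes, 52.1% of the Great Basin calls and 21.5% of the Mojave calls, of which 543 went the same way (246 higher, 297 lower). The number called in the same direction in both, 543, was 357 from the authors' processed ratios and 254 without slide 1. All arrays share the pool and the model's estimate of spread, and the array positions of diet were likewise fixed. Il1r2 differed by 3.13 in Mojave, Elovl6 by 2.53, Apoa4 by -1.82 and Cyp2b15 by -1.57. Of the 15 higher genes with a symbol of largest difference 12 were called higher in Mojave, and of the 15 lower genes 13 were called lower. The proteasome lists had medians of -0.54 and -0.70 there, with 11 and 14 members called lower.

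Some Great Basin differences had a small counterpart in Mojave. For Arntl the Mojave difference was 0.15 ± 0.30, and Great Basin minus Mojave was 1.45 ± 0.40 (limma, adjusted p = 0.146). For Oat it was 0.11 ± 0.35, with 1.42 ± 0.48 between the populations (adjusted p = 0.218). Bhmt was higher in both (0.65 ± 0.17 in Mojave), and the difference between the populations was 0.92 ± 0.23 (adjusted p = 0.117). Shank2, a synaptic scaffold protein, differed by 0.39 ± 0.29 in Mojave and 1.52 ± 0.27 in Great Basin, where a second probe read 0.12. No gene was called by limma for the difference between the populations, against 3435 (13%) at an unadjusted p under 0.05, so these are not shown to differ. Without creosote 4 the count was 334, without creosote 2 it was 6, and with median centring it was 2449. The median SE of this difference was 0.131.

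**Figure D4:**
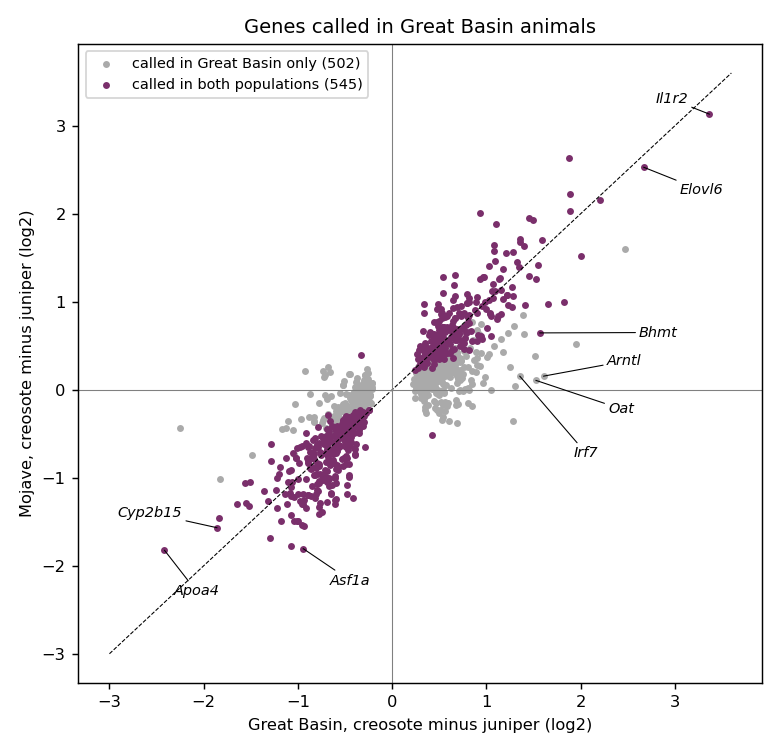
Diet difference (creosote minus juniper, log2) of the 1047 genes called in Great Basin animals, with Great Basin on the x axis and Mojave on the y axis. Purple points were called in both populations (545) and grey points in Great Basin only (502), and the dashed line marks equal differences. Most points share a sign, and Arntl, Oat and Irf7 lie near 0 in Mojave.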

How the data were processed

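The 16 woodrat livers were hybridised to 1 Agilent two-colour rat array each, and the Great Basin comparison uses 8 arrays. The deposited scanner files give mean and background intensity per spot and dye, and processed intensity, from Agilent Feature Extraction 9.1.3.1 per the submitters' processing notes. The deposited series values are log2 ratios, found here to equal log2 of processed red over green within 5e-10. Per the labels, red (Cy5) was the animal and green (Cy3) the pool, with no dye swap, from 500 ng RNA.

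Mean intensities were reanalysed in R 4.3.3 with limma 3.58.1: normexp background correction (offset 50, which draws dim genes towards 0), loess within each array with control spots at weight 0, and averaging of replicate spots. Of 41012 probes, those well above background in red on at least 4 of 16 arrays, with at least 3 values per group, were kept, and a gene took its brightest kept probe. Old array symbols were kept (Hspca, Hspcb, Ass, Dci and Xlkd1 are now Hsp90aa1, Hsp90ab1, Ass1, Eci1 and Lyve1).

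A linear model with 4 group means and sex was fitted to all 16 arrays, so that the groups share 1 estimate of spread. A second model gave each sex its own diet difference. Tests were two-sided with Benjamini-Hochberg adjustment over 26423 genes at 0.05. The diet difference and its difference between the populations were tested on simulated data, and the second model was not. The labels name separate animals, and their number limits the precision (median SE 0.0892). Same-numbered animals did not deviate together (correlations -0.17, 0.14, -0.01 and -0.06), so the numbers do not pair them.

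Genes named are the 15 largest called differences with a symbol in each direction and, of 74 gene lists, up to 4 called members with the smallest p, with their further probes. The members and lists were chosen with earlier results of these data known. Alternatives covered background correction, scaling, dim probes, choice of probe, arrays and covariates in the fit, and leaving out slides or animals. Probe sequences were not used here, and some genes that the naming rule selects are not reported here.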

Additional observations from a re-analysis of the deposited data

Results flagged for a closer look

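Among the named genes, 301 groups of 4 Great Basin animals, 1 group per gene and diet, were checked for a single animal far from the other 3. In 17 groups such a value was found, 9 on creosote and 8 on juniper, all from the same 8 animals. Chance gives about 1 in 20 such groups, and the count is near that share. Values are log2 animal over pool, with the range of the other 3 animals of the same diet.

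Creosote 4 was low for Hspb1 (-1.57, others -0.40 to -0.30), Crat (-1.08, others -0.38 to -0.28) and Txn1 (-0.72, others 0.05 to 0.16). Creosote 2 was high for Ppp1r3c (1.00, others 0.36 to 0.46) and Mttp (-0.51, others -0.83 to -0.81) and low for the glucose carrier Slc2a1 (-0.03, others 0.39 to 0.43). Creosote 1 was high for G6pc (1.12, others 0.08 to 0.23) and the cochaperone Dnajc9 (0.65, others 0.26 to 0.30). Creosote 3 was high for Acmsd (0.81, others 0.36 to 0.40).

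Juniper 2 stood apart for citrate synthase, Cs (-0.23, others 0.08 to 0.12), Crat (-0.13, others 0.32 to 0.38) and Per3 (0.47, others 0.22 to 0.25). Juniper 4 was high for the complex I subunit Ndufa6 (0.10, others all -0.07) and for Ass (0.26, others -0.10 to -0.05). Juniper 3 was high for Hspcb (0.13, others 0.02 to 0.03) and low for Gsr (0.00, others 0.20 to 0.22). Juniper 1 was low for Gys2 (-0.05, others 0.62 to 0.69).

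Whether anything beyond chance sets these values apart was not tested.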

How the results depend on the processing

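Counts are of genes called by limma. The Great Basin count of 1047 became 398 without slide 1 and ranged from 625 to 1120 when each animal was left out. It lay between 702 and 1511 under the other alternatives. The 543 genes called in the same direction in both populations became 357 from the authors' processed ratios and 254 without slide 1. The 204 called genes of the lists became 135 and 94 under the same settings, and 135 to 202 when each animal was left out. The count for Great Basin minus Mojave, 0 in the reported model, was 2449 with median centring, 10 with the mean over probes, 14 with the slide as a block and 0 to 334 when each animal was left out. The count for male minus female, 1 in the reported model, was 0 from the processed ratios, from Cy5 alone, with the slide as a block and without slide 1, and 1 to 3 when each animal was left out. The replicate number does not pair the animals, and with it as a replicate block the counts were 928 for the diet, 1 for Great Basin minus Mojave and 0 for male minus female. The direction turned with Cy5 alone for Dnajc9 (-0.62, adjusted p = 0.0209) and Csf3r (-0.18). Of 157 called genes among those followed, 102 kept their call without each animal in turn and 99 lost it under some other alternative. Dropping slide 1 leaves 3 animals per group, and the causes of the other changes were not tested. Saturated or dim spots limit Cyb5, Ambp, Gnmt and Rbp2.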

Other observations

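Single genes of energy and redox metabolism that the lists above do not bring out also separated the diets. Lactate dehydrogenase A (Ldha) was between -1.18 and -0.32 on creosote and between 0.18 and 0.39 on juniper (-1.01 ± 0.18, limma adjusted p = 0.00473). Citrate synthase (Cs), which starts the citric acid cycle, was lower (-0.73 ± 0.15, second probe -0.56). Of 65 genes of oxidative phosphorylation 3.08% were called, against 3.96% of all genes, with a list median of 0.03. Ndufa6 was lower (-1.05 ± 0.14) and Cox5b higher (0.44 ± 0.09). Fumarate hydratase (Fh1) was higher (0.83 ± 0.19, further probes 0.73 and 0.48), although its animals overlapped and its call was lost without creosote 2 or 3, and likewise without juniper 1, 3 or 4 (adjusted p from 0.0512 to 0.08). The peroxiredoxins differed in opposite directions, with Prdx1 lower (-0.73 ± 0.13) and Prdx4, which acts in the endoplasmic reticulum, higher (1.09 ± 0.22). Prdx1 had no call from the authors' processed ratios or with median centring, and Prdx4 none without slide 1 (limma adjusted p = 0.1). In Mojave the Prdx1 difference was 0.21, and the difference between the populations was not called.

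Genes of growth and translation were called at about the share of all genes, 3.96%. Of 50 translation factors 1 was called higher and 1 lower (4%). Of 40 genes of the cell cycle and DNA replication 1 was called higher and 1 lower (5%). Eif4ebp1, a repressor of cap-dependent translation, was between -1.05 and -0.20 on creosote and between 0.17 and 0.29 on juniper (-0.79 ± 0.14, second probe -0.65). Stathmin (Stmn1), which destabilises microtubules, was higher (1.15 ± 0.21, second probe 0.94), and the cyclin-dependent kinase Cdk4 was lower (-0.41 ± 0.10, second probe -0.33), a call lost with the mean over both probes (adjusted p = 0.0526) and without creosote 1 or 4, and likewise without juniper 1, 3 or 4 (adjusted p from 0.0577 to 0.0902). Adhfe1, a mitochondrial alcohol dehydrogenase, was higher (0.80 ± 0.12). It was the only call among 36 alcohol, aldehyde and carbonyl enzymes (2.78%, against 3.96% of all genes).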
